A study of Mus musculus with 2 samples.

Results

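Small nucleolar RNAs (snoRNAs) and small Cajal body RNAs (scaRNAs) were examined among the RNA sites of the RNA helicase DDX10 in mouse embryonic stem cells. The members were all peaks whose gene symbol in the deposited annotation starts with Snord, Snora or Scarna, counted a single time per position and strand. Replicate 1 listed 7 such peaks among 131 distinct ones, and replicate 2 listed 1 among 96. They carried 7 gene names: Snord22, Snord65, Snord96a and Snord14c of the box C/D class, Snora3 and Snora41 of the H/ACA class, and Scarna9. CLIP-seq, in which ultraviolet light fixes a protein to the RNA it touches and the bound RNA is sequenced, was run on nuclear extracts of E14 cells that stably expressed Flag-tagged DDX10. Both libraries were made this way, from cells kept in medium with CHIR99021, PD0325901 and leukemia inhibitory factor and crosslinked with 400 mJ/cm2 at 254 nm. They formed the only group. The labels do not say whether the replicates were separate cultures, how strongly the tagged protein was expressed or whether the cells were a single clone. No control or input library was analysed here, so no height is set against the abundance of its RNA. Peaks do not report expression, and 0 of 6 pluripotency genes, among them Pou5f1, Sox2 and Nanog, carried one in either library. With 131 and 96 distinct peaks in all, most genes carried none.

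Box C/D snoRNAs pair with a target RNA and direct the methyltransferase fibrillarin to methylate a ribose there, and H/ACA snoRNAs direct the pseudouridine synthase dyskerin to convert uridines. A few snoRNAs, U3, U14 and U22 among them, serve instead, or in addition, in the cleavages that release 18S rRNA from its precursor, the step named in the series title. ScaRNAs guide the same modifications on spliceosomal small nuclear RNAs. In mammals most of these RNAs are cut out of introns, so each has a host gene whose transcript contains it.

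Snord22, also called U22, carried the highest member peak in both libraries and was the sole member found in both. It is a box C/D snoRNA known for its need in 18S rRNA processing. Its peak on chromosome 19 had a height, the greatest number of overlapping tags, of 85 in replicate 1 and 17 in replicate 2. That placed it 10th of 131 peaks and joint 20th of 96, below all 9 Rn45s peaks of replicate 2 and 7 of the 8 in replicate 1. The peak spanned bases 41 to 44 of the 126 bases of the snoRNA in replicate 1 (chr19:8725906-8725909, mm10, plus strand) and bases 35 to 53 in replicate 2 (chr19:8725900-8725918). The narrower peak lay wholly inside the wider one, so both libraries marked the same stretch of the RNA.

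The other members were listed in replicate 1 alone, with heights from 5 to 12. In the box C/D class, Snord65, which guides methylation of 18S rRNA, had a height of 12, Snord96a, which guides methylation of an rRNA of the large subunit, a height of 9, and Snord14c, a copy of U14, a height of 8. In the H/ACA class the height was 6 at Snora3 and 5 at Snora41. Scarna9, which guides methylation of the U2 small nuclear RNA, had a height of 5. Box C/D peaks thus summed to 114 of the 130 tags of member height in replicate 1, H/ACA peaks to 11 and the scaRNA peak to 5. Snord22 alone gave 65.4% of this summed height. The sums go by the name of the peak. The peaks named for Snord96a, Snora3 and Scarna9, with 9, 6 and 5 tags, lay outside those RNAs, as described below. Their tags are therefore not shown to come from the RNAs that give the class.

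**Figure D1:**
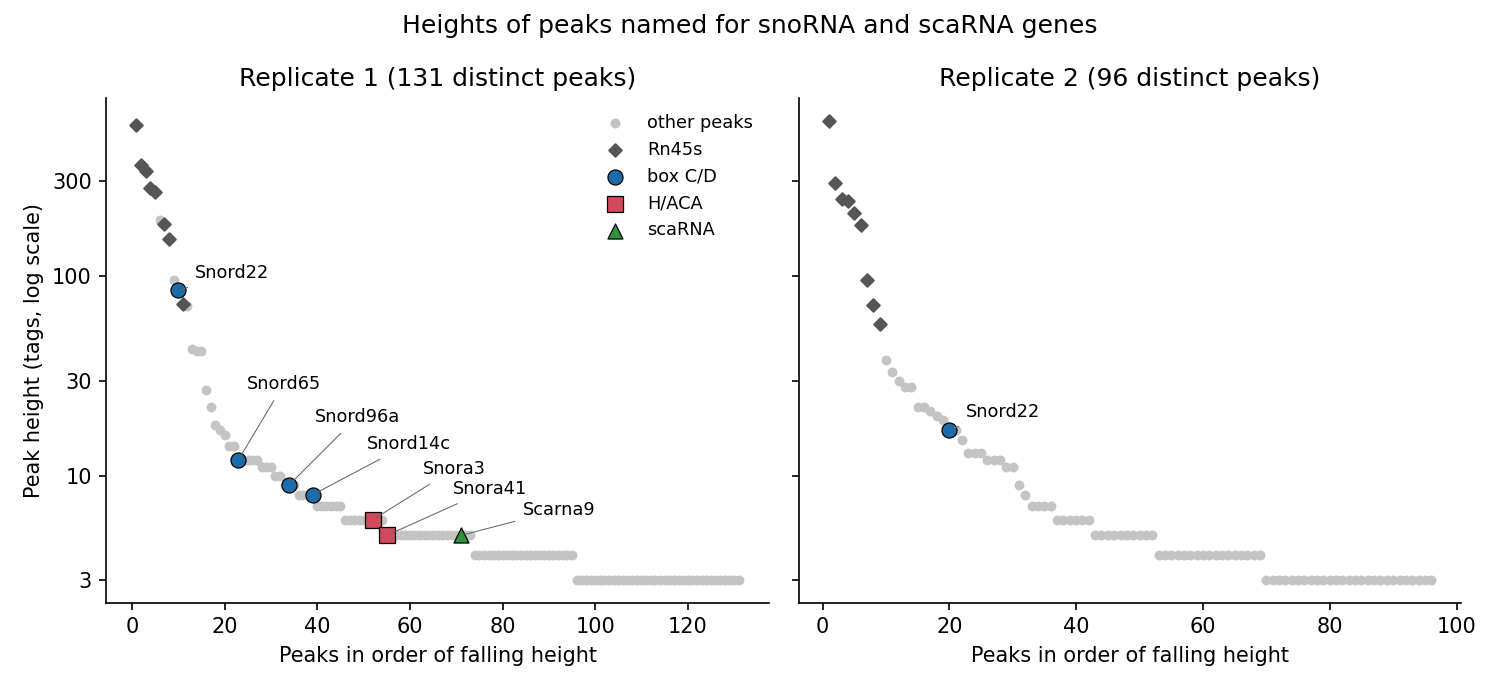
Height of each peak in tags (y, log scale) against its place in the list by falling height (x) for replicate 1 (left) and replicate 2 (right); grey points are other peaks, diamonds are Rn45s, and coloured points are the members by class. Snord22 stands at 85 and 17 tags, and the remaining 6 members lie between 5 and 12 tags in replicate 1.

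Apart from Snord22, the members ranked from 23rd to joint 55th of 131 peaks in replicate 1. No member of either library stood below the median height of its list. The median over all 7 members in replicate 1 was 8 tags, beside 5 tags over all 131 peaks, and none stood at the lowest listed height of 3. A height of 10 or more was reached by 2 of 7 members in replicate 1, where 24.4% of all peaks reached it, and by the single member in replicate 2, where 31.2% did. The p-value that the peak caller wrote was at most 0.01 for 6 of 7 members, beside 86.3% of all peaks, and the exception was Snora41 with 0.0193.

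The members held 3.72% of the summed peak height in replicate 1 (130 of 3491 tags, exact Clopper-Pearson 95% interval 3.12% to 4.41%) and 0.633% in replicate 2 (17 of 2687 tags, 0.369% to 1.01%), a mean of 2.18% ± 2.19 (SD, n = 2). Without the Rn45s peaks, the precursor of the large rRNAs, the shares were 10.3% and 2.47%. Snord22 alone held 2.43% in replicate 1 (1.95% to 3.00%) and 0.633% in replicate 2 (0.369% to 1.01%), and these 2 intervals did not overlap. Tags copied by PCR are not independent molecules, and the intervals cover counting error only. As a share of peaks, the members made up 5.34% of replicate 1 (exact 95% interval 2.18% to 10.7%) and 1.04% of replicate 2 (0.0264% to 5.67%), and by a two-sided Fisher's exact test the difference stayed above the threshold of 0.05 (p = 0.143). That test compares 2 libraries, not conditions.

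No member other than Snord22 was found in both libraries, and whether 6 such peaks differ in this from peaks of like height was not tested. Of the 7 members of replicate 1, 1 was found again in replicate 2 by an overlap of at least 1 bp on the same strand, beside 33.6% of all 131 peaks, and the single member of replicate 2 was found in replicate 1, beside 45.8% of all 96 peaks. No peak of replicate 2 lay within 50 bp of the other 6, the nearest being 535731 bp away. Peaks of like height were often unshared too: of 51 peaks with heights from 5 to 12 in replicate 1, the range of these 6 members, 16 had a partner (31.4%), and all 16 were among the 45 that were not members.

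Snord22 was much lower in replicate 2. Its height there was 0.2 times that in replicate 1, where the median over all 44 shared peaks was 0.805 and the range 0.156 to 4.33. Of the shared peaks, 4 had a lower ratio, 1 each at Filip1l and Cdk8 and 2 at Spata5. Sharing needed a listed height in both libraries, of 3 tags or more. Low peaks of replicate 1 thus could not show a ratio this small, and the median covers only peaks that recurred. At the median ratio all 6 other members would have stood at 4.03 tags or more in replicate 2, above the lowest listed height of 3. At the ratio of Snord22 none of them would have reached it, with 2.4 tags for Snord65 as the highest. A member missing from the replicate 2 list is therefore not shown to be absent from that library.

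By position, 4 of the 7 member peaks of replicate 1 lay in the snoRNA whose name they carry and 3 lay beside it. Over all peaks of that list, 50.4% overlapped the gene interval that the authors' annotation gives with the symbol. The 4 were Snord22, Snord65, Snord14c and Snora41. The Snord65 peak covered bases 1 to 25 of 72 (chr11:62604515-62604539, plus strand), beginning at the annotated 5′ end. The Snord14c peak covered bases 33 to 51 of 86 (chr9:40803615-40803633, plus strand), and the Snora41 peak bases 11 to 43 of 132 (chr1:63179014-63179046, plus strand). In replicate 1 these 4 peaks ended at 34.9% (Snord22), 34.7% (Snord65), 59.3% (Snord14c) and 32.6% (Snora41) of the length of their RNA. The called intervals thus stopped short of the 3′ end. They do not give the full reach of the reads, and a preference for either end was not tested. RefSeq draws Snord65 and Snora41 shorter at the 5′ end, so that 10 of 25 and 24 of 33 peak bases fall in the RefSeq genes, whereas the Snord22 and Snord14c peaks lie inside on both annotations.

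The peaks named for Snord96a, Scarna9 and Snora3 lay outside those RNAs. The Snord96a peak (chr11:48802349-48802352, plus strand) stood 236 bp past the snoRNA's 3′ end, within the host Rack1. The nearest other RefSeq snoRNA gene, Snord95, was 786 bp away, so this peak touched no annotated snoRNA. The Scarna9 peak (chr9:15326413-15326428, minus strand) stood 79 bp before the annotated start of Scarna9 and 35 bp from the RefSeq snoRNA gene Gm24339, in the gap between the 2 genes. The Snora3 peak (chr7:109521356-109521388, plus strand) was 1104 bp past Snora3 and inside another RefSeq snoRNA gene of the same host, LOC115485611, at bases 77 to 109 of 130 counted from its lower coordinate. Its class is not given in the gene table, so the H/ACA label of this peak rests on the symbol of a gene that it did not overlap.

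**Figure D2:**
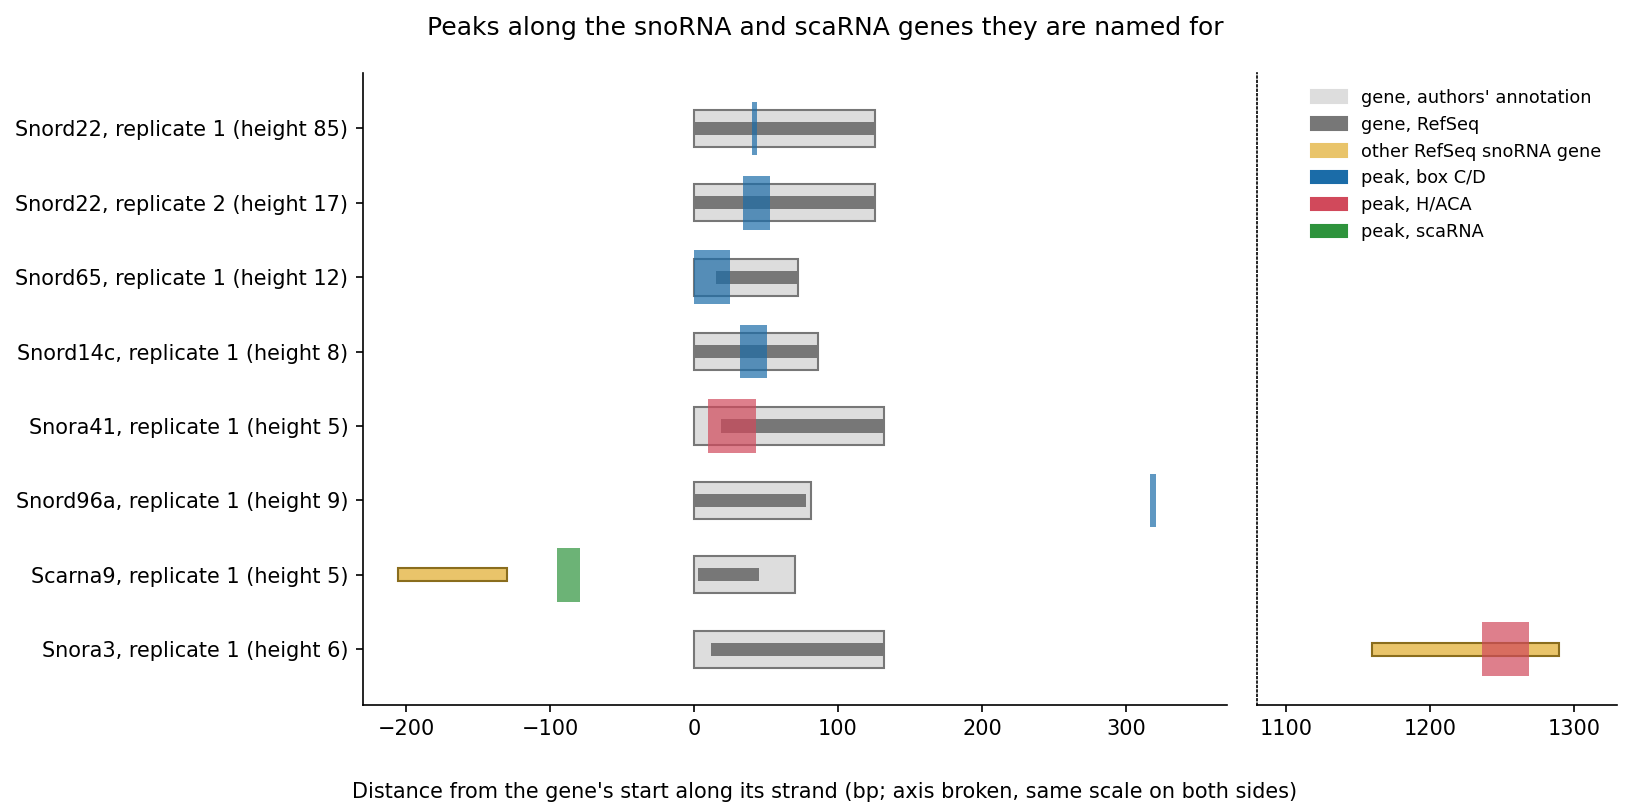
Each row places 1 member peak (coloured by class) relative to the start of the gene it is named for, in bp along the gene's strand, with the gene in the authors' annotation (light grey), in RefSeq (dark grey) and any nearer RefSeq snoRNA gene (yellow); the axis is broken before the Snora3 peak. The 5 rows at the top have the peak inside the gene, and the Snord96a, Scarna9 and Snora3 peaks stand 236, 79 and 1104 bp outside it.

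Every member peak lay on the strand of its gene, 7 of 7 in replicate 1 and 1 of 1 in replicate 2. The share over all peaks was not computed, so this is not shown to set the members apart. The annotation placed 6 of 7 in the promoter class (21.4% of all peaks). Peaks of that class lay up to 988 bp from a start, and the members' genes are at most 132 bp long, so the class covers the whole of each gene and does not mark a promoter here. The exception was the Snora3 peak, which was classed as exon 1 of 1 of a short transcript. Widths differed among the members. Both peaks named for H/ACA genes were 33 bp wide, a width that 9.16% of all peaks reached, but only the Snora41 peak lay on its gene. The peaks named for box C/D genes were 4, 25, 4 and 19 bp and the Scarna9 peak 16 bp, around a median of 20 bp over the list.

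U14 offered a comparison of copies. RefSeq lists 4 Snord14 genes, 3 of them within Hspa8, and 2 had a peak in replicate 1: Snord14c with 8 tags, and Snord14e with 7 tags under the annotated name Hspa8. Counted from the lower coordinate, the peaks covered bases 33 to 51 of Snord14c and 35 to 45 of Snord14e, so that 11 bases from 35 to 45 lay in both. Snord14a and Snord14d had no peak. Copies of U14 are near-identical, and the treatment of reads that map to several places is not given in the sources used here, so tags may be divided among the copies in an uncertain way.

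The gene written in the peak's own name was the host for all 7 members, with Snord22 listed a second time under its own ID. Over the list, the gene in the name differed from the annotated gene for 19.8% of peaks. Of the hosts, 2 are long noncoding RNAs, Snhg1 for Snord22 and 2410006H16Rik for Snord65. The other 5 encode proteins: Rack1, a scaffold on the small ribosomal subunit, for Snord96a; Hspa8, a chaperone, for Snord14c; Rpl27a, a protein of the large subunit, for Snora3; Eef1b2, a translation elongation factor, for Snora41; and Cep295, a centrosome protein, for Scarna9. Together these hosts contain 23 RefSeq snoRNA or guide RNA genes, of which 6 overlapped a peak in replicate 1 and 1 in replicate 2. Over all 1381 such genes in the table, 11 and 2 did. The hosts were chosen through the member peaks themselves, so the higher share within them follows from that choice. Snhg1 contains 8, and its peak was at the last of them along the plus strand, Snord22, with none at the 7 before it. No host had a peak outside its snoRNAs other than those at Rack1 and Cep295 described above.

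The members also differed from most of the list in PH0, a field of the peak's name that is read here as the height expected for the gene. It was above 0 to 2 decimals for 7 of 7 members in replicate 1, beside 36.6% of all peaks. Under the host gene, PH0 was 1.19 tags at Snord22, 0.28 at Snord65, 0.22 at Snord14c, 0.12 at Snord96a, 0.10 at Snora3, 0.06 at Snora41 and 0.01 at Scarna9. Heights were therefore 71.4 times PH0 at Snord22, 42.9 at Snord65, 36.4 at Snord14c, 75.0 at Snord96a, 60.0 at Snora3 and 83.3 at Snora41. The hosts of these ranged in length from 1930 bp (2410006H16Rik) to 5882 bp (Rack1). Scarna9 stood at 500 times, which rounding of PH0 leaves between 333 and 1000, and its host Cep295 was 40936 bp long. PH0 was given per gene, and how far the multiples follow host length was not tested.

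Outside Rn45s, a height under 100 times PH0 was found at 9 peaks of replicate 1 (7.32% of 123), and 6 of these were the members just named. The limit of 100 was chosen after the values were seen. Of these 6 members, the Snord96a peak touched no annotated snoRNA gene, and the Snora3 peak lay on a snoRNA gene other than Snora3. The 3 peaks that were not members lay on RefSeq snoRNA genes. They were Hspa8 on Snord14e with 31.8 times, Eif4a1 on Gm25835 with 70.0 times and Epb41l4aos on Gm23639 with 26.9 times. A low multiple was not common to all peaks on snoRNA genes, since the 3 remaining non-member peaks there stood above the limit: Eif4g2 on LOC115486847 with 22 tags, or 367 times, and Ddx39b and Cnot1 with 5 tags each, at least 1000 times. In replicate 2 the sole such peak was Snord22 with 17 tags over a PH0 of 0.30, or 56.7 times (1.15% of 87 peaks). The other replicate 2 peak on a RefSeq snoRNA gene, Eif4g2 on LOC115486847 again, had 7 tags and stood at 350 times. Among peaks that were neither members nor Rn45s and had a PH0 above 0, the median was 467 times in replicate 1 (33 peaks) and 567 times in replicate 2 (21 peaks). Peaks with PH0 written as 0.00 stood at 600 times or more, since PH0 was then under 0.005.

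**Figure D3:**
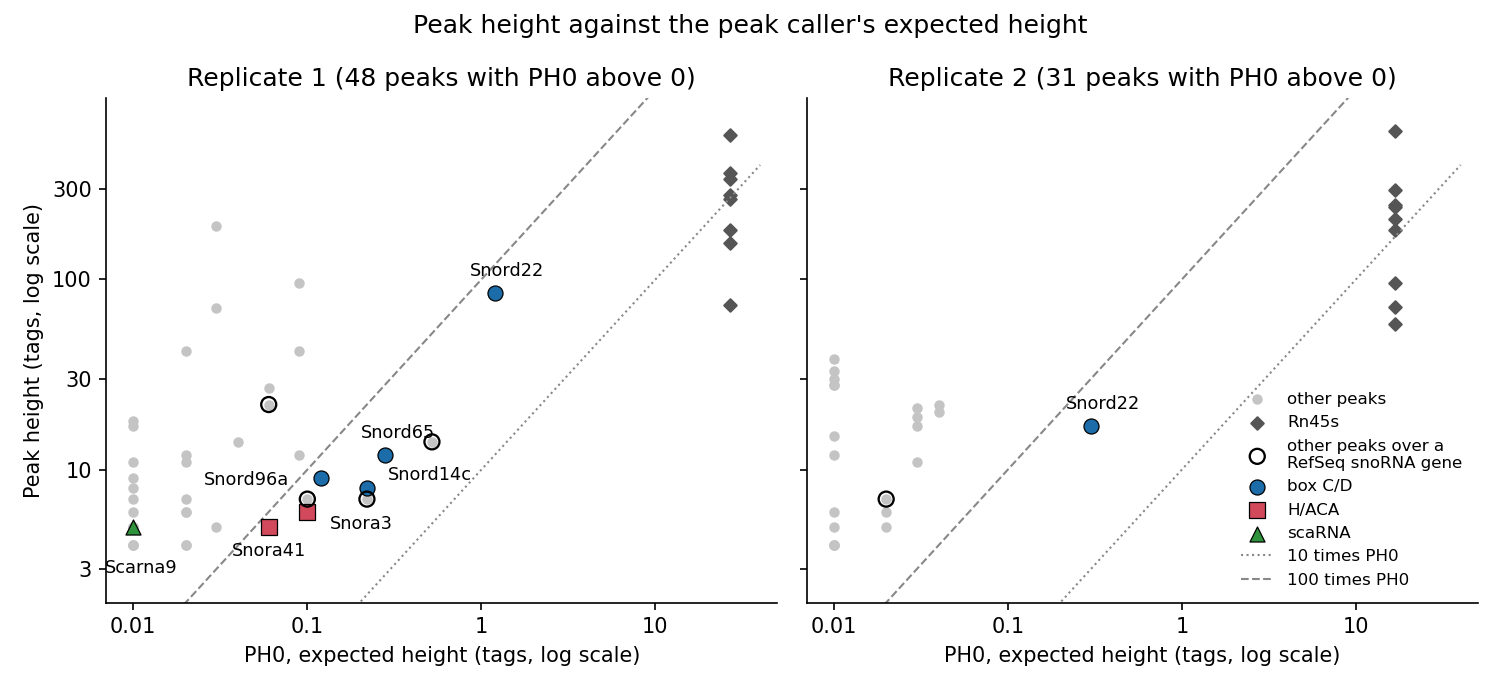
Peak height (y, tags, log scale) against the expected height PH0 (x, tags, log scale) for the peaks with PH0 above 0, in replicate 1 (left) and replicate 2 (right); lines mark 10 and 100 times PH0, diamonds are Rn45s, and open circles are non-member peaks on RefSeq snoRNA genes. Snord22, Snord65, Snord96a, Snord14c, Snora3 and Snora41 lie below the line of 100 times, and Scarna9 lies above it at 500 times.

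At Snord22 the height and PH0 were both lower in replicate 2, at 0.2 and 0.252 times their values in replicate 1, so that 71.4 and 56.7 times were close while the tags differed. The Snord22 peak was the sole listed peak in Snhg1, and whether PH0 moves with the same tags was not tested. The closeness is therefore not read as agreement between replicates. Over the median height of each list, Snord22 stood at 17 and 3.4 times. The peak of replicate 1 was also deposited under Snord22's own gene ID, with a PH0 of 25.91 tags and a p-value of 1.39e-10. Against that value the height was 3.28 times the expected one. The size of the excess at Snord22 thus depends on whether the host transcript or the snoRNA itself is taken as the gene.

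The proteins and partner RNAs of these particles were given no peak by symbol or position in either library. None was found at the 4 box C/D core proteins (fibrillarin, Fbl, among them), the 4 H/ACA core proteins (dyskerin, Dkc1, among them), the 11 assembly factors or the 9 spliceosomal small nuclear RNA genes, the targets of scaRNAs. Outside Rn45s the libraries listed 123 and 87 peaks, beside 49997 genes in the RefSeq table. Most genes thus had no peak, and these short lists are not set apart by having none. Of 10 genes for snoRNAs and related RNAs known for pre-rRNA cleavage, 3 overlapped a peak in replicate 1, Snord22, Snord14c and Snord14e, and 1 in replicate 2, Snord22. Over all 1381 snoRNA and guide RNA genes the shares were 0.797% and 0.145%, and 2 of the 3 are U14 copies in 1 host. The list was chosen with earlier results of these data known and includes the members Snord22 and Snord14c. Its count therefore cannot be read as an excess of this class. Genes of the list without a peak included Snord118 (U8), Snord13, Snora73a and Snora73b (U17) and Rmrp, the RNA of RNase MRP. The 5 genes of U3, listed as Rnu3 in mouse and looked up after the data were seen, also had none. By symbol, 4 of 94 Snord, 2 of 39 Snora and 1 of 9 Scarna genes in RefSeq were named for a peak, or 4.26%, 5.13% and 11.1%. Over all 142 such genes the share was 4.93%, and the Scarna share rests on 1 peak. The Snord96a, Snora3 and Scarna9 peaks lay outside those genes, so the shares count names and do not rank the classes. With so few tags outside rRNA, the lack of a peak does not show the lack of binding.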

How the data were processed

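Members and lists were chosen with earlier results of these data known. Peaks were called per library; the labels' processing notes name the mm10 build, BWA, ChIPseeker and deepTools without versions or roles, and no source used here gives the peak caller, read filters or controls. The deposited signal of a peak is its height in tags, a whole number not scaled for depth, and other deposited columns give positions and lengths in bp. Gene ID, PH0, taken here as the expected height, and a p-value were read from the deposited peak name. Total reads per library are unknown. Rows of 1 position and strand were merged (133 and 98 rows gave 131 and 96 peaks), keeping the first, which at Snord22 gives the host. RefSeq genes were those of a 49997-gene table on GRCm38.p6, the same build as mm10. It gives neither strand nor exons, and no peak sequence was used. All 7 members were named, with the hosts and nearest snoRNA genes; list symbols allowed 1 further letter or copy number. Shared peaks overlapped by at least 1 bp. One item is not reported here. The overlap code was tested on simulated peaks. Python 3.11.15, pandas 2.3.3 and scipy 1.17.1 were used.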

Additional observations from a re-analysis of the deposited data

How the results depend on the processing

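Of 32 alternative values, 17 kept their side of the threshold or stayed within the error or 1.5 times, and none reversed. Counting peaks on any RefSeq snoRNA or guide RNA gene instead of by symbol gave 11 and 2 peaks in place of 7 and 1, 5.04% of summed height in replicate 1, and Fisher's exact p = 0.0474 between replicates; the range over the other alternatives was 0.138 to 0.144. Taking the gene from the peak name gave 3 peaks in replicate 2, through Snora19. Without Rn45s the members' shares of height were 10.3% and 2.47%, and those of Snord22 6.76% and 2.47%. Requiring the whole peak inside the RefSeq gene left 2 of 4 peaks in their snoRNA, and with the authors' gene coordinates, added after the data were seen, all 4. Over the median height of the list, Snord22 stood at 17 times in replicate 1 and 3.4 times in replicate 2, and over the PH0 of its own gene ID, also added later, at 3.28 times. Leaving out a replicate moved the mean number of member peaks, 4, to between 1 and 7, and the mean share of height, 2.18%, to between 0.633% and 3.72%. No paired analysis was possible because the series has 1 group. Heights of 5 to 12 tags limit what the lists can show at 6 of the 7 members.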

Other observations

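A further snoRNA, Snora19 of the H/ACA class, appears in the deposited files only in the peak names and is not a member. It was given as the gene of 4 rows in replicate 1, all on the minus strand of chromosome 19. None lay at Snora19, which RefSeq places at chr19:60774330-60774385. The annotation named other genes for them: Emx2os, 1.32 Mb away with a height of 3, Vti1a, 5.22 Mb away with a height of 6, Sorcs3, 11.9 Mb away with a height of 3, and Rrp12, 18.9 Mb away with a height of 4. In replicate 2 the Rrp12 peak, again with a height of 4, and a Sorcs1 peak of height 9, 9.63 Mb away, also carried Snora19 in their names. A count of snoRNA peaks by the gene in the peak name would therefore include such rows, and of the members it would keep Snord22 in replicate 1 alone.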
